A study of Mus musculus with 20 samples.

Results

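The transcripts described here are 10 genes of major histocompatibility complex (MHC) class I presentation and the immunoproteasome in IgA+ plasma cells (IgA+ PCs) of the mouse small intestine: H2-K1, H2-D1, B2m, Tap1, Tap2, Tapbp, Nlrc5, Psmb8, Psmb9 and Psmb10. They were picked by name, with earlier results of these data known, as the rows of the deposited count table whose Ensembl identifier carries one of these symbols. All 10 were among the 47069 rows of that table, and all 10 passed the filter on low counts that left 13967 genes for testing. Lamina propria cells of wild type C57BL/6 mice were gated for CD138 and IgA, and poly-T selected RNA was sequenced in bulk to ask which transcripts differ with the time of day. Each of the 20 libraries came from 1 animal, with 5 animals at each of ZT0, ZT6, ZT12 and ZT18. Zeitgeber time (ZT) counts the hours after lights on, so that the lights were on from ZT0 to ZT12 and off afterwards, the time in which mice feed. The labels give no age, and genotype and strain were shared by all groups.

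MHC class I molecules carry short peptides from proteins made inside the cell to its surface, where CD8+ T cells and natural killer cells read them. The peptides are cut by the proteasome, whose standard catalytic subunits can be replaced by those of the immunoproteasome, and are pumped into the endoplasmic reticulum (ER) by a transporter before they are loaded onto a heavy chain paired with beta-2-microglobulin. Many of the genes are induced by interferon. Those of the heavy chains and of beta-2-microglobulin share a promoter module through which the transactivator NLRC5 acts. Plasma cells load their ER with antibody, and class I assembly takes place in the same compartment.

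Each library held 35.6 to 68.0 M counts (M, mega), of which 52.6 to 62.3% fell in immunoglobulin genes. Plasma cell markers were high throughout, with Xbp1 at 1856 to 2125 and Sdc1 at 693 to 862 counts per M counts (CPM, scaled by trimmed mean of M values, TMM). They were not all even over the day, and 4 of 8 differed between times. Irf4 means were 596, 309, 447 and 310 CPM at ZT0, ZT6, ZT12 and ZT18. Tnfrsf17 means were 90.35, 104.4, 103.5 and 79.3 CPM, and Prdm1 was highest at ZT18 (272 CPM). Markers of granulocytes and mast cells were at or near 0, with Cpa3 at 0 in 20 of 20 libraries. The 8 macrophage and dendritic cell markers summed to 76.4 to 103 CPM at ZT0 and 65.9 to 98.5 at ZT6, then to 82.4 to 95.9 at ZT12 and 70.1 to 82.1 at ZT18. Between times, 19.5% of all tested genes differed (edgeR adjusted p under 0.01), the share to set beside each count of markers here. None of the 8 was at 0 in any library and 2 of 8 differed between times. Of these, C1qa was lower at ZT6 than at ZT0 (log2 fold change −0.33, edgeR adjusted p = 0.00871) and higher at ZT0 than at ZT18 (0.40, adjusted p = 0.00229), as several of the class I genes were. The other, Cd14, went the opposite way and was lower at ZT0 than at ZT18 (−1.07, adjusted p = 0.00277), with means of 0.991 and 2.09 CPM. The 8 T cell and ILC (innate lymphoid cell) markers summed to 27.2 to 32.4 CPM at ZT0 and 21.5 to 25.2 at ZT18, nearly all of it Cd4, the 1 of 6 tested that differed (28.6 CPM at ZT0 against 21.7 at ZT18, 0.40, adjusted p = 0.000221). The 8 stromal and endothelial markers summed to 26.4 to 37.7 CPM, and 3 of 6 tested differed: Col1a1 and Col3a1 were lower at ZT6 than at ZT0 (adjusted p = 0.00542 and 0.00634, list median −0.57), as several class I genes were, and Pecam1 was higher (0.26, adjusted p = 0.00643). Col3a1 means were 2.14, 0.857, 0.734 and 0.552 CPM over the 4 times. Paneth and goblet cell markers summed to 1.89 to 63.4 CPM and 8 enterocyte markers other than Epcam to 0.248 to 20.2, each highest in a ZT6 library. Epcam was lower at ZT0 than at ZT18 (−0.29, adjusted p = 0.000787), and 7 B cell markers summed to 12.0 to 19.9 CPM, with 1 of 5 tested that differed. The part of all these cells in the results below was not tested. In bulk RNA, a change in the number of cells that express a gene and a change in RNA per cell cannot be told apart.

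The promoters were examined because class I genes share an upstream module, and 8 of the 10 genes had a window in the RefSeq table for GRCm38.p6. Shown are the 250 bases before the start site of both heavy chains, of beta-2-microglobulin and of Tap1, 5′ to 3′ on the strand of the gene. Capitals mark TGACG, the core of the cAMP-response element, and ATTGG, which reads CCAAT on the other strand. They also mark NF-kappaB matches and an exact form of the interferon-stimulated element (GAAA, then 2 bases of any kind, then GAAA). All were sought on either strand. H2-K1 lies at chr17:34000348-34000597 on the minus strand, H2-D1 at chr17:35262844-35263093, B2m at chr2:122147437-122147686 and Tap1 at chr17:34187306-34187555, all 3 on the plus strand.
H2-K1: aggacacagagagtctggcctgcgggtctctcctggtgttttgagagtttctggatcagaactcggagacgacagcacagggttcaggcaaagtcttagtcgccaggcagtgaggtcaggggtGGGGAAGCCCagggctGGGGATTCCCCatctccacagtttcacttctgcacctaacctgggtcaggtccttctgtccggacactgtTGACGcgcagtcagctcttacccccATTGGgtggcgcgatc
H2-D1: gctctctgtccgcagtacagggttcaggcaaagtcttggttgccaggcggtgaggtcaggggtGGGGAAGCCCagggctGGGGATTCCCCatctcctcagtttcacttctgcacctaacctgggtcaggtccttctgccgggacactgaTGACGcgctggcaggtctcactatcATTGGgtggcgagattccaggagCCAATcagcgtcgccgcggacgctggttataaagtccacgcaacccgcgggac
B2m: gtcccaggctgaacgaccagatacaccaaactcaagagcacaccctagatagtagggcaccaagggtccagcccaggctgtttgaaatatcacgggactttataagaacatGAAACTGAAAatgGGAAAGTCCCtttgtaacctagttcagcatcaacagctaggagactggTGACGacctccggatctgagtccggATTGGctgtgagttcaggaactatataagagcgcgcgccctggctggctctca
Tap1: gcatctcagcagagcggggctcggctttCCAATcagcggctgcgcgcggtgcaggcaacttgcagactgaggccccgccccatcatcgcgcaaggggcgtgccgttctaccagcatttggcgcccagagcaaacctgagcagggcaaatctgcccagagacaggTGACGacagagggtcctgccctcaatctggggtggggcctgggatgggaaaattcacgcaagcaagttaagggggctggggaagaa
In H2-K1, H2-D1 and B2m, TGACG was followed on the same strand by ATTGG with the starts 25 bases apart. Of 32851 windows of 300 bases (250 before and 50 after the start site), 31 held that spacing (0.0944%), from 27 genes. The spacing was noticed in the sequences themselves and is a description. NF-kappaB matches, found in 7.21% of all windows, lay in H2-K1, H2-D1 and B2m, and the exact form of the interferon-stimulated element (3.44%) lay in B2m. Near matches to that form were not sought, so the other genes cannot be said to lack such an element. TGACG alone was found in 20.8% of windows and ATTGG alone in 37.4%. Tap1 held one of each but not at that spacing, and its window shared 275 bases with that of Psmb9, which is read in the other direction. The E-box CACGTG, which clock factors can bind, was found in 7.15% of windows and in that of 1 of the 8 genes, Psmb10.

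Compared per length (FPKM, fragments per kilobase and M counts, mean over 20 libraries ± SD), B2m was the most abundant of the 10 transcripts at 1401 ± 107. H2-D1 followed at 658 ± 70.9 and H2-K1 at 637 ± 77.5, levels that overlapped between the libraries. B2m FPKM came to 1.09 times the sum of both heavy chains, with 0.928 and 1.27 as the lowest and highest library. Tapbp stood at 192 ± 25.1 FPKM, below the heavy chains in every library. Psmb9 (55.5 ± 9.50), Psmb8 (52.5 ± 5.84), Tap2 (47.1 ± 5.45), Tap1 (42.7 ± 6.16) and Psmb10 (39.6 ± 5.10) followed in that order, and each of them overlapped with its neighbours. Nlrc5 was the least abundant, at 5.80 ± 1.05 FPKM. The order depends on the 1 length per gene that the authors used.

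Class I and immunoproteasome transcripts were at their highest at the opening of the light phase. In 9 of the 10 genes the group mean was highest at ZT0, as in 24.8% of all genes tested, and B2m was highest at ZT12. The lowest mean fell at ZT6 in 5 genes and at ZT18 in the other 5. Across the 4 times, 9 of the 10 differed (edgeR quasi-likelihood test, Benjamini-Hochberg adjusted p under 0.01), where 19.5% of all tested genes did. The exception was B2m, with an adjusted p of 0.0132. The changes were small: the highest group mean exceeded the lowest by a median of 1.21-fold, against 1.18-fold over tested genes of at least 5 CPM.

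**Figure D1:**
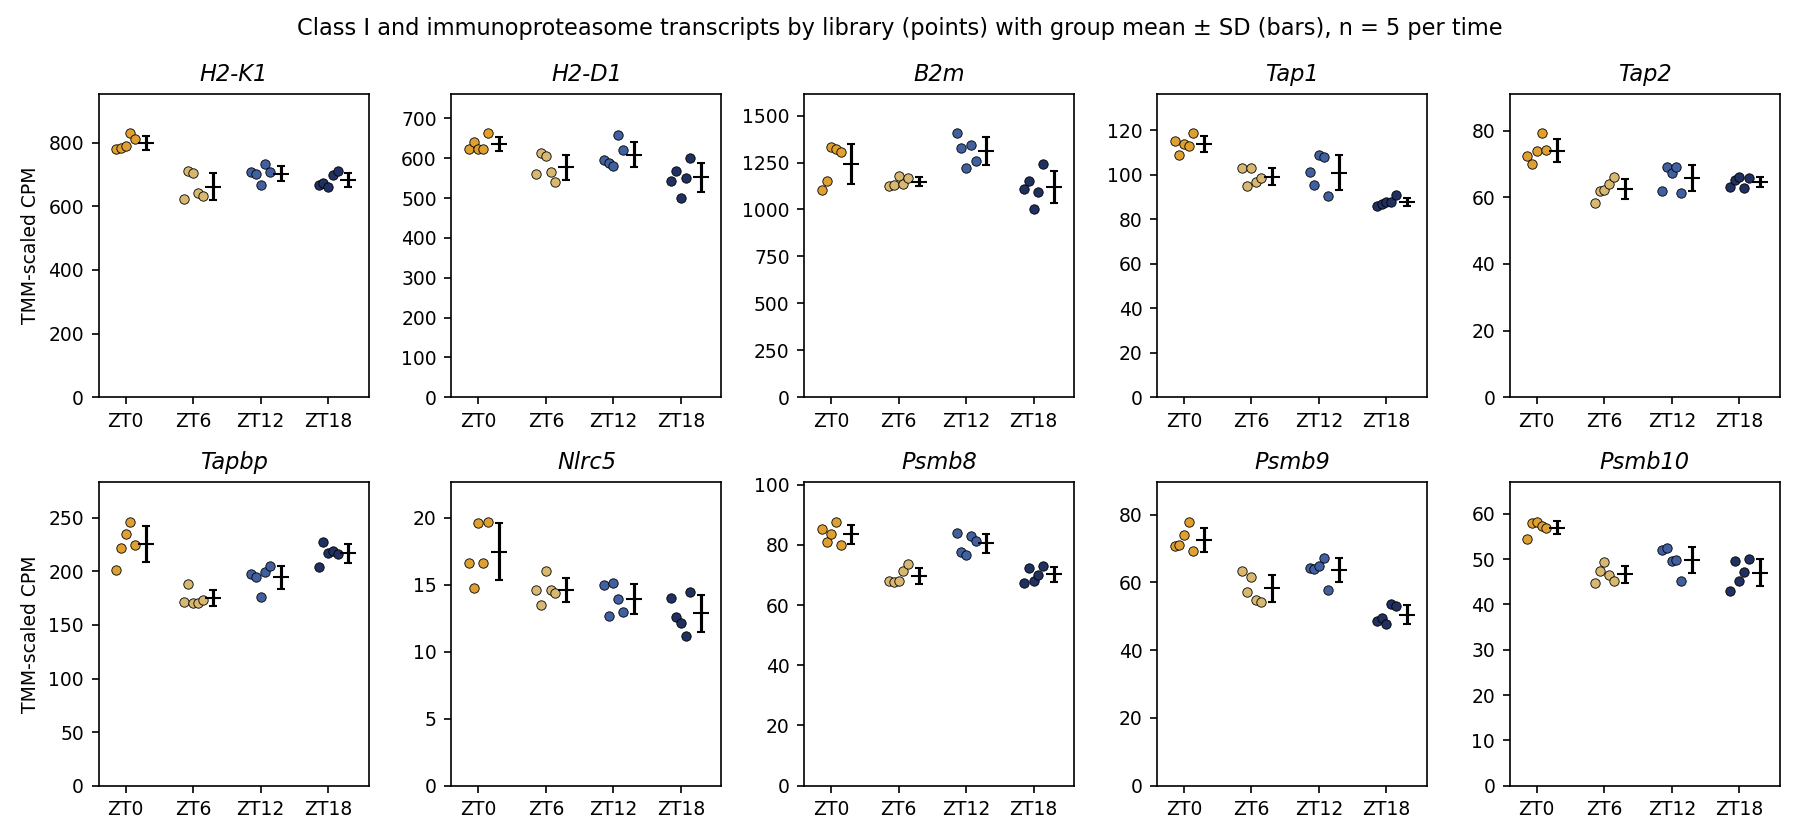
TMM-scaled CPM (y axis, from 0) of the 10 genes by zeitgeber time (x axis); points are libraries in replicate order, bars the mean ± SD of 5 libraries. ZT0 holds the highest mean in every panel but that of B2m, and in Tapbp the mean at ZT18 (217) is close to that at ZT0 (226).

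Among the heavy chains, which present the peptide, H2-K1 (ENSMUSG00000061232, chr17:33996017-34000347, GRCm38) was the clearer case. H2-K1 stood at 779, 782, 791, 830.0 and 813 CPM in the 5 ZT0 libraries, at 622, 709.9, 703.5, 640.4 and 632 at ZT6, at 708, 701.5, 665, 732 and 707 at ZT12, and at 667, 673, 659.5, 697.5 and 711 at ZT18. Every ZT0 library lay above all 15 others, while the other times overlapped with each other. H2-K1 fell from ZT0 to ZT6 (log2 fold change −0.27 ± 0.04 SE, adjusted p = 2.61e-06) and was lower at ZT12 than at ZT0 (−0.19 ± 0.04, adjusted p = 0.000956). H2-D1 (ENSMUSG00000073411, chr17:35262730-35267499) ranged from 623 to 663 CPM at ZT0 and from 499.9 to 599.9 at ZT18, with no overlap between those times. It was higher at ZT0 than at ZT18 (0.20 ± 0.04, adjusted p = 0.00122), while its value from ZT0 to ZT6 (−0.14 ± 0.04) did not pass the test (adjusted p = 0.0244). Both genes resemble other class I genes in sequence, and how the counting assigned reads that match several of them is not stated in the sources used here.

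B2m (ENSMUSG00000060802, chr2:122147686-122153083) encodes the light chain that every class I heavy chain needs. B2m CPM was 1105, 1152, 1334, 1323 and 1304 at ZT0, 1127, 1129, 1178, 1134 and 1168 at ZT6, 1407, 1325, 1223, 1345 and 1259 at ZT12, and 1109, 1152, 1005, 1094 and 1241 at ZT18. The ZT0 libraries were split, with 2 of the 5 at 1152 or lower and the other 3 above every ZT6 library, and all ZT12 libraries lay above all ZT6 libraries. The fall from ZT12 to ZT18 passed the test (−0.23 ± 0.06, adjusted p = 0.00869) and the difference between ZT0 and ZT18 did not (0.15 ± 0.06, adjusted p = 0.0934). The higher mean of B2m at ZT12 than at ZT0 (0.08 ± 0.06, adjusted p = 0.491) turned to −0.09 when libraries were scaled by their totals, which carry the immunoglobulin counts.

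The transporter that carries peptides into the ER is made of TAP1 and TAP2. Tap1 (ENSMUSG00000037321, chr17:34187553-34197225) stood at 115, 109, 114, 113 and 119 CPM at ZT0, at 103, 94.7, 103, 96.7 and 98.4 at ZT6, at 101.2, 95.6, 109, 108 and 90.6 at ZT12, and at 85.9, 86.7, 87.9, 87.8 and 90.8 at ZT18. Its ZT18 libraries lay below every ZT0 and every ZT6 library and its ZT0 libraries above every ZT6 library, with the lowest ZT0 and the highest ZT12 library next to each other. Tap1 fell from ZT0 to ZT6 (−0.20 ± 0.05, adjusted p = 0.00516) and again from ZT12 to ZT18 (−0.20 ± 0.05, adjusted p = 0.00453), and was higher at ZT0 than at ZT18 (0.38 ± 0.05, adjusted p = 4.06e-06). Tap2 (ENSMUSG00000024339, chr17:34203527-34216321) ranged from 69.9 to 79.3 CPM at ZT0, above all other libraries, which spanned 58.4 to 69.1 CPM. Tap2 fell from ZT0 to ZT6 (−0.24 ± 0.05, adjusted p = 0.000736), and its later steps up to ZT18 did not pass the test. Both transporter transcripts were thus highest at ZT0, and their means at ZT18 were 87.8 CPM for Tap1, its lowest, and 64.6 CPM for Tap2, above its ZT6 mean of 62.5.

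Tapbp (ENSMUSG00000024308, chr17:33915899-33929292) encodes tapasin, which bridges the transporter and the empty heavy chain. Tapbp CPM was 202, 222, 234.5, 246.5 and 224 at ZT0, 172, 188, 171, 171 and 174 at ZT6, 197.5, 195, 176, 199 and 205 at ZT12, and 204, 228, 217, 219 and 216 at ZT18. Its ZT6 libraries were below all ZT0 and all ZT18 libraries, and ZT0 and ZT18 overlapped. Tapbp fell from ZT0 to ZT6 (−0.37 ± 0.05, adjusted p = 3.93e-06) and was higher at ZT18 than at ZT6 (0.31 ± 0.05, adjusted p = 4.96e-05), the only one of the 10 genes called higher in that comparison. Its fitted 24-hour cosine peaked 20.3 hours after lights on, with a 1.298-fold span from trough to peak (adjusted p = 5.71e-06). The gene overlaps Zbtb22 on the same strand over 3422 bases, and Zbtb22 held 15697 counts against 178204 for Tapbp.

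Nlrc5 (ENSMUSG00000074151, chr8:94434356-94527272) encodes the transactivator of class I genes. Nlrc5 stood at 16.6, 14.8, 19.6, 16.6 and 19.7 CPM at ZT0, 14.6, 13.5, 16.0, 14.6 and 14.4 at ZT6, 14.9, 12.7, 15.1, 13.9 and 12.9 at ZT12, and 14.0, 12.6, 12.1, 11.1 and 14.4 at ZT18. All ZT0 libraries lay above all ZT18 libraries, and ZT6 and ZT12 overlapped with both. Only the difference between ZT0 and ZT18 passed the test among the pairs of times (0.44 ± 0.09, a 1.36-fold difference, adjusted p = 0.000486). The means ran from 17.5 CPM at ZT0 through 14.6 and 13.9 to 12.9 at ZT18, and the cosine was called, with its peak at 1.96 hours (adjusted p = 0.00545).

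The inducible catalytic subunits of the immunoproteasome are encoded by Psmb8, Psmb9 and Psmb10. Psmb9 (ENSMUSG00000096727, chr17:34181987-34187764) showed the widest change of the 10 genes, with 70.7, 71.1, 73.9, 78.0 and 69.2 CPM at ZT0, 63.3, 57.3, 61.7, 54.8 and 54.4 at ZT6, 64.2, 64.0, 64.9, 67.4 and 57.7 at ZT12, and 48.5, 49.6, 47.8, 53.6 and 53.2 at ZT18. All ZT0 libraries lay above all others and all ZT18 libraries below all others. Psmb9 was 1.44-fold higher at ZT0 than at ZT18 (0.52 ± 0.06, adjusted p = 1.07e-07), fell from ZT0 to ZT6 (−0.32 ± 0.06, adjusted p = 8.97e-05) and fell from ZT12 to ZT18 (−0.33 ± 0.06, adjusted p = 2.97e-05). It was also the only one of the 10 called lower at ZT18 than at ZT6 (−0.21 ± 0.06, adjusted p = 0.00801). Psmb9 and Tap1 overlap by 212 bases on opposite strands, and reads there could be counted for either gene if the counting did not use strand.

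Psmb8 (ENSMUSG00000024338, chr17:34197721-34201454) alternated between high and low values over the day. Psmb8 CPM was 85.2, 81.1, 83.6, 87.7 and 80.1 at ZT0, 68.1, 67.7, 67.8, 71.2 and 73.5 at ZT6, 83.9, 77.7, 76.6, 83.0 and 81.3 at ZT12, and 67.4, 72.4, 68.0, 69.8 and 73.1 at ZT18. Libraries of ZT0 and ZT12 lay above all libraries of ZT6 and ZT18, with overlap within each of these pairs. It fell to ZT6 (−0.26 ± 0.05, adjusted p = 0.000142), rose to ZT12 (0.21 ± 0.05, adjusted p = 0.00322) and fell again to ZT18 (−0.20 ± 0.05, adjusted p = 0.00247). Scaled by library totals, the rise was 0.08 (adjusted p = 0.417) and the fall −0.11 (adjusted p = 0.236). Psmb10 (ENSMUSG00000031897, chr8:105935735-105938444) lay between 54.5 and 58.3 CPM at ZT0 and between 43.0 and 52.4 at the other times, without overlap. It fell from ZT0 to ZT6 (−0.29 ± 0.05, adjusted p = 0.000166), with means of 46.7, 49.8 and 47.0 CPM at ZT6, ZT12 and ZT18.

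Counted over the set, 7 of 10 fell from ZT0 to ZT6, where 4.13% of tested genes fell. The ZT6 libraries lay below the ZT0 libraries without overlap in 8 of 10, as in 4.84% of genes, and 1 of these 8, H2-D1, did not pass the test. The median log2 change was −0.26 against −0.003 over all genes, and 10 of 10 values were negative. From ZT18 to ZT0, 8 of 10 were higher at ZT0 (3.38% of tested genes) and 8 of 10 did not overlap (4.29% of genes), with a median of 0.24 against 0.007. The exceptions were B2m and Tapbp. These comparisons share the ZT0 libraries. From ZT12 to ZT18, 4 of 10 fell (B2m, Tap1, Psmb8 and Psmb9), where 5.14% of tested genes fell. Scaled by library totals, none of the 4 was called, with −0.14 for B2m (adjusted p = 0.0279), −0.12 for Tap1 (0.295), −0.11 for Psmb8 (0.236) and −0.25 for Psmb9 (0.0119), and Tapbp was called higher (0.24, adjusted p = 0.00495). Of the other comparisons, ZT12 minus ZT0 called H2-K1 and Tapbp lower (1.9% of genes lower), ZT12 minus ZT6 called Psmb8 higher (2.34% higher), and ZT18 minus ZT6 called Tapbp higher and Psmb9 lower (4.05% and 4.2%). With immunoglobulin-carrying library totals as the scale, the median of all genes moved by −0.17 in ZT12 minus ZT0 and by −0.13 in ZT12 minus ZT6. The ZT12 minus ZT6 value then turned negative for H2-K1 (−0.04), H2-D1 (−0.05), Tap1 (−0.10), Tap2 (−0.05) and Psmb10 (−0.03). On that scale 6 of 10 were called lower at ZT6 than at ZT0 (463 of 13967 genes). In the same way 9 of 10 were called higher at ZT0 than at ZT18 (521 of 13967 genes). The counts of the smaller comparisons turned on single libraries: the 4 of ZT12 to ZT18 became 1 without ZT12 replicate 1 or ZT18 replicate 1 and 2 without ZT12 replicate 4 or ZT18 replicates 2 or 4, and the 1 of ZT12 minus ZT6 became 0 without ZT6 replicate 3 or ZT12 replicate 1. The 2 of ZT12 minus ZT0 became 1 without ZT0 replicates 3, 4 or 5 or ZT12 replicates 1, 2 or 3, and the 2 of ZT18 minus ZT6 became 1 without ZT6 replicates 1, 2 or 3, ZT12 replicates 2 or 3 or ZT18 replicates 1, 2 or 3.

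**Figure D2:**
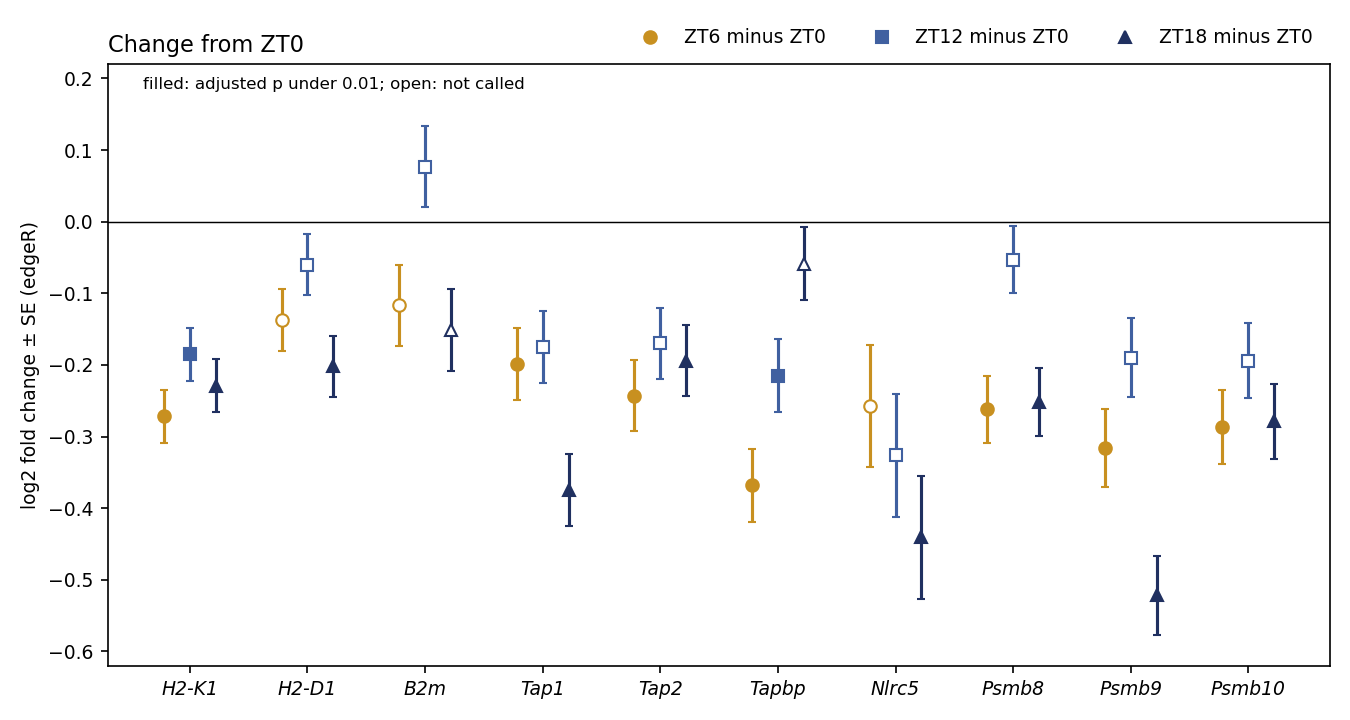
Log2 fold change ± SE (y axis, edgeR) from ZT0 to ZT6 (circles), ZT12 (squares) and ZT18 (triangles) for the 10 genes (x axis); filled symbols are called at an adjusted p under 0.01. All values lie below 0 except B2m at ZT12 (0.08), and Psmb9 lies furthest below ZT0, by 0.52 at ZT18.

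The 12-hour term was the mean of ZT0 and ZT12 minus that of ZT6 and ZT18. A high at ZT0 alone also makes it positive, so it does not by itself show 2 highs a day. The term was positive in 10 of 10 genes and called in 8, where 4.34% of tested genes were called higher. Tapbp (0.11, adjusted p = 0.0407) and Nlrc5 (0.19, adjusted p = 0.0319) did not pass. Among the 8, Psmb8 alone was also called for the rise from ZT6 to ZT12. Both means of ZT0 and ZT12 were above both of ZT6 and ZT18 in 8 of 10 genes, as in 17.9% of tested genes. The largest terms were those of Psmb9 (0.33 ± 0.04, adjusted p = 3.73e-07) and Psmb8 (0.23 ± 0.03, adjusted p = 6.16e-06). With library totals 3 of the 10 were called, B2m, Psmb8 and Psmb9, where 253 of 13967 genes were called higher. Heat shock transcripts were most uneven at ZT12, where the 11 genes summed to 1758 to 6910 CPM. Without the 3 libraries of highest sums 5 of the 10 were called (440 of 14373 genes higher). The part of heat shock in the result was not tested. The 24-hour cosine called 5 of 10 (H2-K1, Tap1, Tapbp, Nlrc5 and Psmb9), where 11.3% of tested genes were called. The fitted peaks lay between 20.3 and 3.16 hours, on both sides of lights on. The JTK rank test for a 24-hour rhythm, with each library used once, called 0 of 10, with 1 of 10 at an unadjusted p under 0.05, and 123 genes in all.

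Each immunoproteasome subunit takes the place of a constitutive one: PSMB8 that of PSMB5, PSMB9 that of PSMB6 and PSMB10 that of PSMB7. None of the 3 constitutive transcripts differed between times (adjusted p = 0.17 for Psmb5, 0.52 for Psmb6 and 0.448 for Psmb7), and 0 of 3 had an unadjusted p under 0.05 with edgeR or were called with DESeq2. Over all tested genes 19.5% differed, and with 3 genes a count of 0 cannot be told from that share. In FPKM, Psmb8 averaged 1.79 times Psmb5, Psmb9 0.860 times Psmb6 and Psmb10 3.34 times Psmb7. Log2 ratios of CPM within a library do not depend on the scaling. The log2 ratio of Psmb9 over Psmb6 was 0.53 ± 0.10 (SD, n = 5) at ZT0 and 0.24 ± 0.20 at ZT6, then 0.30 ± 0.04 at ZT12 and 0.06 ± 0.04 at ZT18. The ZT12 libraries, at 0.26 to 0.36, lay below all ZT0 libraries, at 0.43 to 0.67, and the ZT18 libraries, at 0.02 to 0.11, overlapped with the wider range of ZT6, 0.07 to 0.52. Psmb9 over Psmb6 was lower at ZT12 than at ZT0 by −0.23 (exact two-sided permutation p = 0.00794, the smallest that 5 against 5 can give, adjusted over 6 tests p = 0.0476). Of the other 5 tests none passed 0.05 after adjustment, with differences of −0.05 to −0.19 and adjusted p of 0.0714 to 0.548. In ZT18 minus ZT6 the Psmb9 ratio differed by −0.18, for which the exact permutation p was 0.0476 and the adjusted p 0.0714. Without the 3 libraries of highest heat shock sums, the difference between ZT12 and ZT0 was −0.21 (exact permutation p = 0.0357, adjusted p = 0.107).

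**Figure D3:**
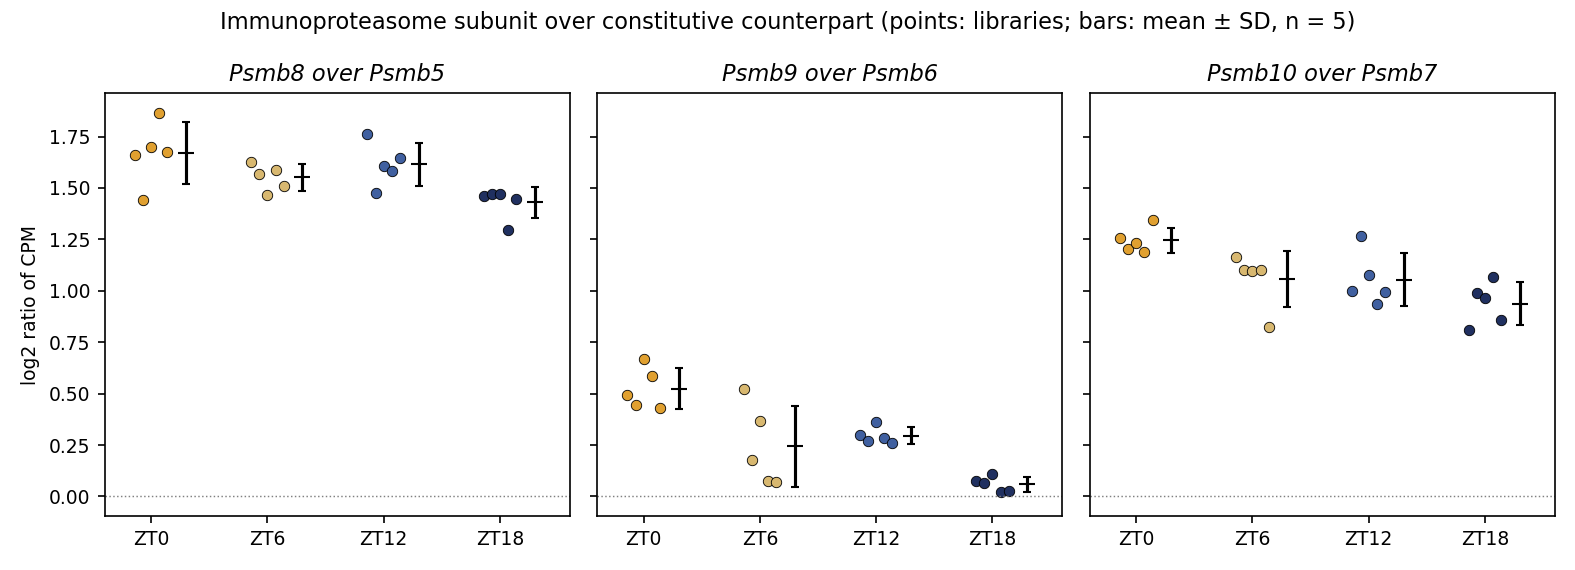
Log2 ratio of CPM (y axis) of each immunoproteasome subunit over its constitutive counterpart by zeitgeber time (x axis); points are libraries, bars the mean ± SD of 5, and the dotted line marks equal CPM. Psmb9 over Psmb6 is lowest at ZT18 (0.06) and highest at ZT0 (0.53), and the other ratios overlap more between the times.

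The neighbours of the 10 genes in the pathway were read from lists by role. Of 17 tested class I and class I-like heavy chains outside the 10, 6 differed between times, where 19.5% of all tested genes did. H2-Q4 (90.0 CPM at ZT0 against 65.0 at ZT6, log2 fold change −0.47 ± 0.06, adjusted p = 1.51e-06), H2-Q6 (128.5 against 87.6, −0.55 ± 0.07, adjusted p = 6.04e-06) and H2-K2 (16.8 against 10.6, −0.66 ± 0.10, adjusted p = 1.18e-05) fell from ZT0 to ZT6 as H2-K1 did. These 3 were the only ones of the 17 called lower at ZT6 than at ZT0 (4.13% of tested genes). In that comparison 8 of the 17 values were positive and the median was −0.045. H2-T23, a non-classical heavy chain, had means of 354.5, 376, 385 and 311 CPM and fell from ZT12 to ZT18 (−0.31 ± 0.04, adjusted p = 8.29e-07), where H2-K1 did not pass. H2-Q10, at low counts, rose from 0.978 CPM at ZT12 to 2.05 at ZT18 (1.07 ± 0.26, adjusted p = 0.00303). Cd1d1 fell from 17.6 CPM at ZT6 to 13.7 at ZT12 (−0.37 ± 0.09, adjusted p = 0.00563). Of 6 ER loading and trimming partners, 3 differed (19.5% of all tested genes), the chaperones Calr and Canx and the glycoprotein folding sensor Uggt1, with Canx highest at ZT18. Of the proteasome activator and assembly genes, 0 of 4 were called (edgeR and DESeq2, 0 with an unadjusted p under 0.05), although 3 of 4 had one with library totals. With 4 genes, 0 called cannot be told from the 19.5% of all tested genes.

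Of 15 factors that bind class I promoters, 9 differed between times, against 19.5% of all tested genes. Irf1, a transcription factor that interferon induces and that binds interferon-stimulated elements, had means of 113 ± 7.27 CPM (SD, n = 5) at ZT0 and 84.1 ± 7.93 at ZT6, then 93.2 ± 9.36 at ZT12 and 68.0 ± 5.73 at ZT18. Irf1 was 1.66-fold higher at ZT0 than at ZT18 (0.73 ± 0.07, adjusted p = 6.79e-08), and the order of its means was that of Psmb9, Tap1 and H2-D1. The means of H2-K1, B2m, Tap2, Tapbp, Nlrc5, Psmb8 and Psmb10 came in other orders. The part of Irf1 in any of these values was not tested. Nfkb1 (−0.39), Rfx5 (−0.29) and Nfya (−0.40) fell from ZT0 to ZT6, where 7 of the 15 were called lower (4.13% of tested genes). Their later courses differed. Nfkb1 had its highest mean at ZT18 (49.55 CPM against 47.96 at ZT0) and Nfya at ZT12 (20.3 against 19.9), while Rfx5 was lowest at ZT12 (18.9). Rela was highest at ZT18 (75.1 CPM). Of 8 interferon receptor and signalling genes, 5 differed (19.5% of all tested genes did): the kinase Tyk2 fell from 112 to 63.4 CPM between ZT0 and ZT6 (−0.83 ± 0.05, adjusted p = 2.82e-13), while the receptor chain Ifnar1 rose from 97.7 to 118 (0.27 ± 0.07, adjusted p = 0.00617). Jak2 was higher at ZT18 than at ZT12 (0.40). In ZT6 minus ZT0, 2 of the 8 were called lower (4.13% of tested genes) and 1 higher (649 of 13967 genes). The median was 0.14, with 6 of 8 values positive. Ifngr2 means were 6.69 CPM at ZT0 and 4.23 at ZT6.

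**Figure D4:**
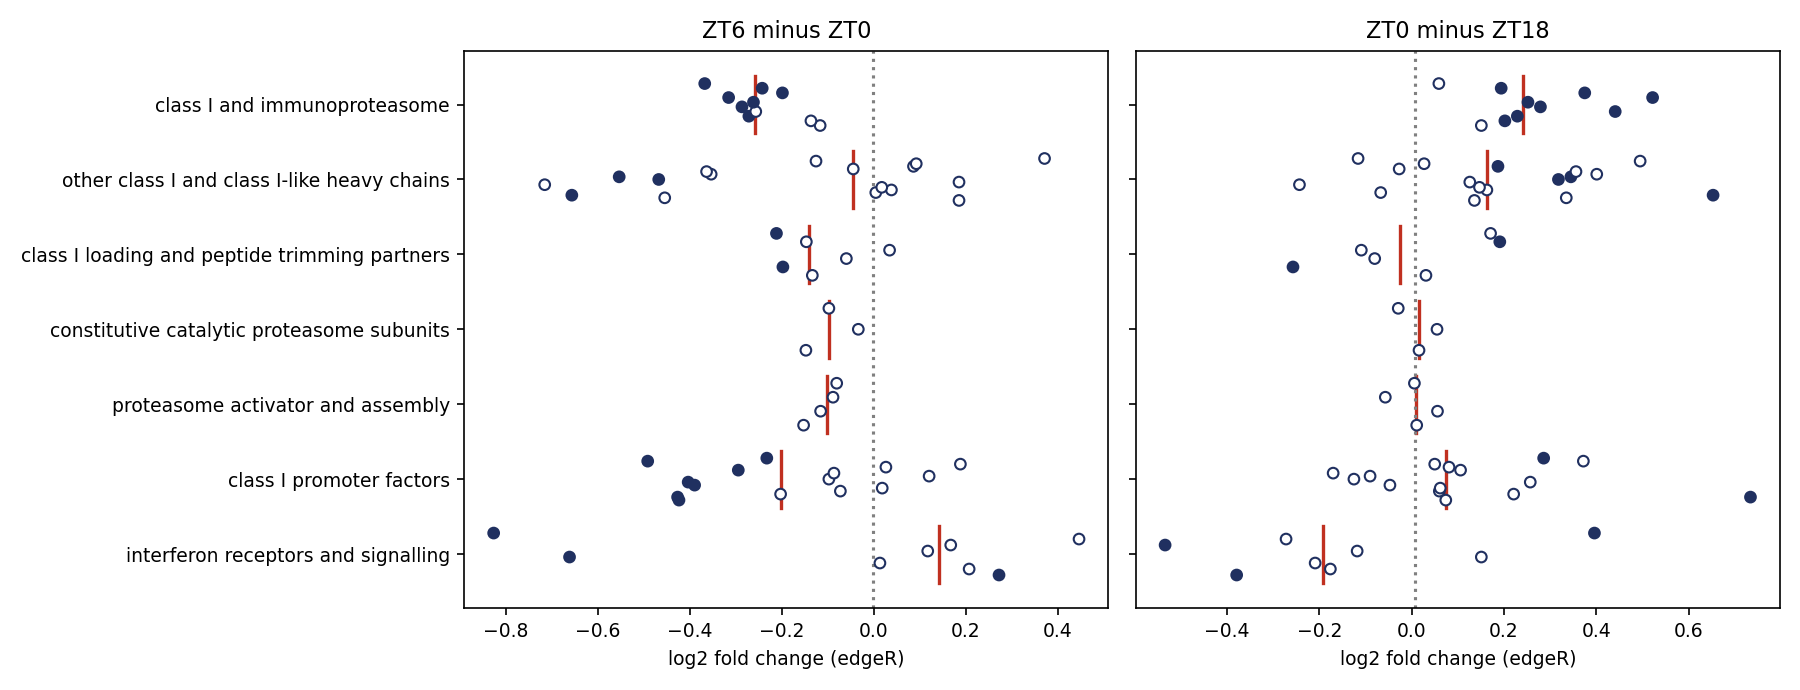
Log2 fold change (x axis, edgeR) of each tested gene in ZT6 minus ZT0 (left) and ZT0 minus ZT18 (right), by gene list (y axis); filled points are called at an adjusted p under 0.01, red bars are list medians and the dotted line is the median of all tested genes. The medians of the 10 genes are −0.26 and 0.24, and those of the 3 constitutive subunits are −0.10 and 0.02.

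Likeness of pattern was read as Pearson's r of log2 CPM over the 20 libraries among 7782 genes of at least 5 CPM, as a description, since all points share the same libraries and scaling. H2-K1 was most like Serpina3f (0.91), Pex16 (0.89) and Serpina3g (0.88), and among the 10 genes most like Psmb10 (0.87). Serpina3f and Serpina3g are related serine protease inhibitor genes. Nlrc5 was most like Tap1 (0.83), then Malt1 (0.80) and Serpina3f (0.76), and least like Tapbp among the 10 genes (0.12). Psmb8 was most like Cptp, Ppp1r15a and Dyrk3 (each 0.87), and of the 10 genes most like Psmb9 (0.77).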

How the data were processed

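The members and lists were chosen with earlier results of these data known. The authors deposited raw counts per Ensembl gene for 20 libraries (NEBNext Ultra, poly-T selection, paired-end NovaSeq) and FPKM for 18886 genes; aligner, counter, build and annotation: not given in the sources used here. Every deposited FPKM value of 18071 compared genes was the count over the library's total and a fixed length of the gene (relative tolerance 1e-06). Symbols and positions came from GENCODE M21 (GRCm38) for 46488 identifiers and from the symbols of the deposited table for 105 more. Counts were analysed with edgeR 4.0.16, limma 3.58.1 and R 4.3.3: filterByExpr with the 4 groups, TMM, robust quasi-likelihood fit over all libraries without a block (common biological coefficient of variation 0.224), two-sided tests of any time, a 24-hour cosine, the 12-hour term and pairs of times, with Benjamini-Hochberg adjustment over 13967 genes and calls at 0.01. SE is derived from the fold change and its F statistic. Ratios were compared by exact permutation (threshold 0.05). P-values weigh the differences between times against the spread between animals of the same time. The genes named were the 10 genes, the constitutive subunits and the 3 most alike of H2-K1, Nlrc5 and Psmb8. Up to 5 called genes of each list by p were also named, and Cd1d1 besides. Not every called interferon receptor and signalling gene was named. Cell markers were named after their values were seen. Alternatives were library totals, DESeq2 1.42.0 size factors and DESeq2 itself, TMM without immunoglobulin genes, other filters, JTK, a replicate block and leaving out libraries. Scripts were tested on simulated data. Python 3.11.15, numpy 2.4.6, scipy 1.17.1, pandas 2.3.3 and matplotlib 3.10.9 were used.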

Additional observations from a re-analysis of the deposited data

Results flagged for a closer look

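In 52 groups of 5 libraries (40 of CPM, 12 of log2 ratios), 3 held a library whose distance from its nearest neighbour took up more of the group's range than Dixon's 95% limit of 0.71 allows, and chance flags about 1 in 20 groups. Tapbp at ZT6 reached 188.2 CPM in replicate 2, while the next library stood at 173.6 (a share of 0.827 of the range). The log2 ratio of Psmb8 over Psmb5 at ZT18 was 1.298 in its lowest library against 1.447 in the next (0.852). The log2 ratio of Psmb10 over Psmb7 at ZT6 was 0.8233 in its lowest library against 1.096 in the next (0.796).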

How the results depend on the processing

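The fall from ZT0 to ZT6 and the excess at ZT0 over ZT18 kept their counts within 1.5 times under every alternative run. With library totals, calls were 3 for the 12-hour term, 7 for ZT12 minus ZT0 (all lower), 1 for ZT18 minus ZT6, 0 for ZT12 minus ZT6 (0 with an unadjusted p under 0.05, edgeR) and 1 for ZT18 minus ZT12, higher instead of lower. Over all 13967 genes, library totals called 253 higher for the 12-hour term (606 with TMM) and 921 lower in ZT12 minus ZT0 (265). They called 239 higher in ZT18 minus ZT6 (565), 41 higher in ZT12 minus ZT6 (327) and 924 higher in ZT18 minus ZT12 (670). DESeq2 called 6 lower in ZT12 minus ZT0 (373 of 19824 genes lower) and 2 higher in ZT12 minus ZT6 (504 higher). Without a filter, calls were 3 for the cosine, 1 for ZT12 minus ZT0, 1 for ZT18 minus ZT6 and 2 for ZT18 minus ZT12. Of all 25553 genes, 1585 were then called for the cosine and 304 lower in ZT12 minus ZT0. In ZT18 minus ZT6, 529 were called higher, and in ZT18 minus ZT12, 699 lower. With a total of at least 10 counts, ZT18 minus ZT6 kept 1 (542 of 19863 genes higher), and JTK called 0. The cause of these differences was not tested. Uncalled values that changed sign with library totals were ZT12 minus ZT6 of H2-K1 (−0.040), H2-D1 (−0.047), Tap1 (−0.096), Tap2 (−0.048) and Psmb10 (−0.033), ZT18 minus ZT12 of H2-K1 (0.042), Tap2 (0.060) and Psmb10 (0.001), ZT12 minus ZT0 of B2m (−0.086), and ZT18 minus ZT6 of Psmb8 (−0.028) and Psmb10 (−0.031).

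Settings chosen after seeing the data left out 3 libraries each. Without those with the most epithelial counts (ZT6 replicate 4, ZT12 replicate 2, ZT18 replicate 3), 1 was called in ZT12 minus ZT0, in ZT18 minus ZT6 and in ZT18 minus ZT12, and Psmb10 over Psmb7 passed in ZT12 minus ZT0 (−0.243, exact permutation, adjusted p = 0.0238). Of all 14061 genes, 198 were called lower in ZT12 minus ZT0, 500 higher in ZT18 minus ZT6 and 510 lower in ZT18 minus ZT12. Without those with the most heat shock counts (ZT12 replicates 4 and 5, ZT18 replicate 2), calls were 5 for the 12-hour term, 1 for ZT18 minus ZT6, 0 for ZT12 minus ZT6 and 1 for ZT18 minus ZT12, Psmb9 over Psmb6 in ZT12 minus ZT0 was −0.214, and ZT18 minus ZT6 turned to −0.006 for Psmb8 and −0.016 for Psmb10. Of all 14373 genes, 440 were called higher for the 12-hour term and 446 in ZT18 minus ZT6. In ZT12 minus ZT6, 148 were called higher, and in ZT18 minus ZT12, 508 lower.

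Leaving out 1 library at a time gave 9 to 10 calls for any time, 4 to 5 for the cosine, 6 to 9 for the 12-hour term, 1 to 3 for ZT12 minus ZT0, 1 to 3 for ZT18 minus ZT6, 6 to 7 for ZT6 minus ZT0, 0 to 1 for ZT12 minus ZT6, 1 to 5 for ZT18 minus ZT12 and 7 to 8 for ZT0 minus ZT18. The log2 ratio differences ran, in ZT12 minus ZT0 and in ZT18 minus ZT6, from −0.109 to −0.004 and −0.143 to −0.089 for Psmb8 over Psmb5, from −0.253 to −0.194 and −0.227 to −0.113 for Psmb9 over Psmb6, and from −0.243 to −0.161 and −0.179 to −0.089 for Psmb10 over Psmb7. Uncalled values that crossed 0 ran from −0.073 to 0.003 for B2m, −0.006 to 0.031 for Psmb8 and −0.016 to 0.04 for Psmb10 in ZT18 minus ZT6, and from −0.002 to 0.057 for Tap1 in ZT12 minus ZT6.

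Replicate numbers did not pair the libraries: correlations of same-numbered deviations ran from −0.117 to 0.076, and 4 of 20 libraries correlated best with their own number. With a replicate block, B2m lost its calls in the 12-hour term (adjusted p = 0.0142) and in ZT18 minus ZT12 (0.0188), and Psmb9 over Psmb6 in ZT12 minus ZT0 kept −0.230 with an exact sign-flip p of 0.0625, the smallest 5 pairs allow, and an adjusted p of 0.15; no other call changed.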
